A study of Mus musculus with 374 samples.

Results

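The translation initiation factors (eIF) and elongation factors (eEF) were followed across 5 populations of mouse blood cells sorted into single wells. Members were the genes whose symbol begins with Eif or Eef and a number, with pseudogenes left out, and 55 of the 19829 mouse genes counted met this rule. Of these, 51 encode factors, their partners or enzymes that modify them, and 4 encode the kinases of eIF2 (Eif2ak1 to Eif2ak4), which are described apart. A further 13 annotated protein-coding members, among them Eif4e, Eif2s2 and Eif6, were not analysed here. The members held 18335 UMIs (unique molecular identifiers, each standing for 1 captured transcript), from 25 to 2328 per gene with a median of 204, and 47 of the 55 had at least 50.

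Initiation brings the initiator tRNA and the small ribosomal subunit to the start codon of an mRNA. The factor eIF2 carries the tRNA and eIF2B recharges eIF2 with GTP, while eIF1 and eIF1A keep the small subunit open for scanning and eIF3 is the large scaffold on it. The cap of the mRNA is bound by eIF4E, which eIF4G joins to the helicase eIF4A, and eIF5 and eIF5B complete start codon recognition and subunit joining. In elongation eEF1A delivers aminoacyl-tRNAs and is recharged by the eEF1B subunits, eEF2 moves the ribosome by a codon, and eIF5A helps at difficult peptide bonds. The eIF2 kinases phosphorylate eIF2 and so lower overall initiation. The haem-regulated kinase encoded by Eif2ak1 is known for restraining globin synthesis in red cell precursors that lack haem.

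The cells came from 1 unmodified female C57BL/6 mouse of 10 to 13 weeks. The bone marrow gave 95 wells of progenitor/stem cells (Lin- Kit+ Sca1+, called LSK), 96 of erythroblasts (Ter119+ CD44+ of mid or high forward scatter, EryB), 96 of granulocytes (Mac1+ Gr1+, Grans) and 44 of B lymphocytes (B220+ of low forward scatter, B_Lymph), and the thymus gave 43 wells of T lymphocytes (CD3+ of low forward scatter, T_Lymph). The libraries were made by CEL-seq2, a method that reads the 3' end of each transcript, on 1 plate, on which each population filled its own rows. Plate position, tissue and population therefore cannot be told apart, and each population is 1 sample without replication.

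UMIs were summed over the wells of a population and are given as CPM (counts per 1e6 UMIs on mouse genes) with 95% exact intervals, which cover counting error only, since no test between animals was possible. The sums were 834812 UMIs in LSK, 666728 in EryB, 403506 in Grans, 135808 in B_Lymph and 200396 in T_Lymph, so the lymphocyte values are the least precise. The marker lists of each population stood highest in their own wells, with the granulocyte list at 15.2% of UMIs in Grans and at most 0.669% elsewhere. Haemoglobin transcripts, at 23.5% of UMIs in EryB, were also found at 1.21% in LSK, 1.54% in Grans, 2.83% in B_Lymph and 1.77% in T_Lymph, which is 5.16% to 12.0% of the erythroblast level. Surface fluorescence went against the gate in B lymphocyte wells A8 and B2, and the sums without them are given with the alternatives.

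Many genes of the translation apparatus begin with an unbroken run of pyrimidines (C or T), a feature of mRNAs whose translation follows nutrient signalling, so the annotated start sites of the members were read from the RefSeq promoter table (build GRCm38.p6). A start was found for 45 members. Where a gene had several annotated starts, the one with the longest run was used, for members and for all genes alike. Eif4enif1 had 4 starts. The starts below hold the longest runs among the factors with at least 50 UMIs in a comparison, beside 3 members with a short run. Eif2b5, with the longest run of any member (21 bases), reached that limit in no comparison and is not shown. Each is 30 bases of the sense strand, 5′ to 3′, with the longest run that touches positions -5 to 10 around the first transcribed base in capitals. A run could lie wholly before that base, outside the annotated mRNA, as those of Eif4enif1, Eif2ak1, Eif4a2 and Eef2 do.
Eif2s3x: gccgagcaTTTTCCTTTTCTCTCCgagcaa
Eif3f: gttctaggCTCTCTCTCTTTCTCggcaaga
Eef1a1: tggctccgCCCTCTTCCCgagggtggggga
Eif3l: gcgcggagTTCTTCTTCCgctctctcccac
Eif4enif1: cgtccctgCCCTTCTTCCggaggagcctct
Eif2ak1: gggcgggaCTTCCgttggctcttgtgttac
Eif4a2: cgcggaaaCCCCgtaggagcagggcggccg
Eef2: ataaaaggCCgggcgttgacgtcagcggtc
These windows lie at chrX:94212635-94212664 (minus strand) for Eif2s3x, chr7:108934403-108934432 (plus) for Eif3f, chr9:78481708-78481737 (minus) for Eef1a1, chr15:79075208-79075237 (plus) for Eif3l, chr11:3203001-3203030 (plus) for Eif4enif1, chr5:143817779-143817808 (plus) for Eif2ak1, chr16:23107454-23107483 (plus) for Eif4a2 and chr10:81176617-81176646 (plus) for Eef2.

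A run of at least 8 pyrimidines touched positions -5 to 10 in 8 of 41 factors (19.5%), against 13.0% of all 27025 genes of the table and 14.3% of the 4468 genes with at least 50 UMIs in these wells. Among these 8 factors were Eif4enif1 (run at -10 to -1) and Eef1akmt2 (-13 to -4), whose runs lie wholly before the first transcribed base. The cytosolic ribosomal proteins, the best-known carriers of this feature, held such a run in 40.7% of 59 genes. When the window was extended to position 50, the shares were 26.8% of the factors, 23.8% of all genes and 69.5% of the ribosomal proteins. At the annotated starts the factors as a group therefore lay near the background, and a run was found in some members such as Eif3f and Eef1a1. The libraries read 3' ends, so whether the annotated starts are those used in these cells was not tested. Only the sense strand was searched and no test was made.

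The 51 factors together took the largest share of UMIs in the progenitor/stem cells and the smallest in the granulocytes. The share was 1.08% in LSK (interval 1.06 to 1.11), 0.846% in T_Lymph (0.806 to 0.887), 0.772% in B_Lymph (0.727 to 0.820), 0.619% in EryB (0.601 to 0.638) and 0.378% in Grans (0.359 to 0.397). The neighbours T_Lymph and B_Lymph had overlapping intervals, and the other neighbours in this order did not. Over the plate rows of a population the share ran from 1.03% to 1.13% in LSK and from 0.325% to 0.433% in Grans. The gap between these populations was thus wider than the spread between rows. Single Grans wells with at least 1000 UMIs varied far more, from 0.0565% (H18) to 1.07% (J6). LSK wells reached down to 0.603% (M16), so single wells of these populations overlapped.

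The same order was found without Eef1a1 and Eef2, which alone held a large part of the UMIs, with 0.822% in LSK and 0.320% in Grans. With the most abundant transcripts left out of the totals the EryB share was 0.969%, over 1.5 times its value, and B_Lymph (1.11%) and T_Lymph (1.09%) changed places. Against the synthetic ERCC transcripts added to each well, the factors gave 203.5 UMIs per 1000 ERCC UMIs in LSK, 107.4 in EryB, 85.6 in T_Lymph, 57.9 in B_Lymph and 36.6 in Grans. On this scale, which follows RNA per well, EryB stood above both lymphocyte populations. All mouse transcripts also differed on it, from 18.8 mouse UMIs per ERCC UMI in LSK to 7.50 in B_Lymph. The cytosolic ribosomal proteins took 5.89% of UMIs in LSK, 4.27% in T_Lymph, 3.66% in EryB, 3.09% in B_Lymph and 1.499% in Grans.

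**Figure D1:**
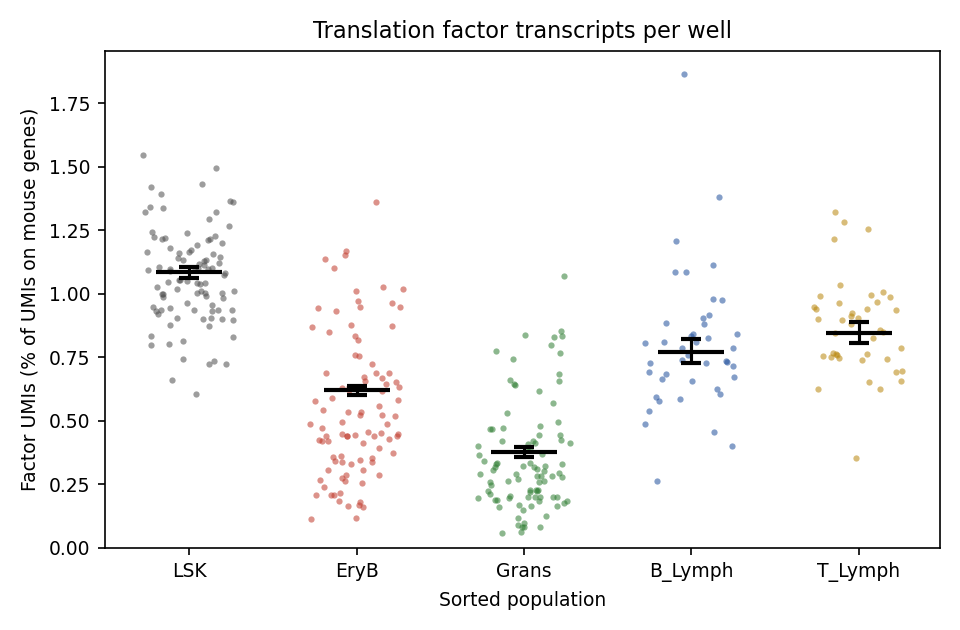
Share of UMIs on mouse genes taken by the 51 translation factors (vertical axis, percent) in each sorted population. Points are wells with at least 1000 UMIs, and the black bar is the value of the summed population with its 95% exact binomial interval. The sums fall from 1.08% in LSK to 0.378% in Grans, and wells of EryB and Grans reach down to low shares while LSK wells do not go below 0.603%.

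Among the 44 factors with enough UMIs to be ranked over the 5 populations, LSK held the highest CPM for 28 and Grans the lowest for 30. Of all 6317 genes ranked in the same way, LSK was highest for 31.9% and Grans lowest for 36.9%. EryB was highest for 6 factors (Eef1d, Eif1 and Eif1ax among them) and lowest for 8, where over all genes it was highest for 18.7% and lowest for 42.1%, more often lowest than Grans. The median range of a factor over the populations was 1.93 on the log2 scale, against 2.36 for all genes and 2.04 for the ribosomal proteins. Eif5, which triggers GTP hydrolysis by eIF2 at the start codon, had the narrowest range (0.58), with 395 CPM in LSK, 345 in EryB, 349 in Grans, 265 in B_Lymph and 359 in T_Lymph. Eif4g3 had the widest range (4.38).

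The granulocytes stood furthest from the progenitor/stem cells. Of the 39 factors counted (at least 50 UMIs in both populations together), 30 were at least 2-fold lower in Grans, against 42.7% of all genes, and 0 were at least 2-fold higher, against 13.7%. Their median log2 ratio was -1.54 where that of all 4440 genes was -0.76, and 6 of the 39 lay above the median of all genes. All 11 counted subunits of eIF3 were at least 2-fold lower (median -1.72, from -2.91 for Eif3e to -1.10 for Eif3k), as were all 4 counted members of eEF1 (median -2.87). LSK was the deeper population, so genes passed the filter largely through their LSK counts.

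The lowest ratio in Grans was that of Eef1g, a subunit of the eEF1B exchange complex, with 33 UMIs against 609 in LSK, a log2 ratio of -3.16 (interval -3.71 to -2.65). Eef1b2, the exchange subunit itself, and Eif1a, which encodes eIF1A, followed with 3 UMIs each against 52 and 51, ratios of -3.07 (-5.39 to -1.44) and -3.04 (-5.36 to -1.41). All 3 intervals lay wholly past a level 2-fold lower than LSK. With its pseudogene copy added Eef1b2 had 21 UMIs against 246, a ratio of -2.50 (-3.22 to -1.86). This lay above the ratio of Eif3e, which was -2.91 alone and -3.08 with its copies. At the other end stood Eif4g3, with 31 UMIs against 34 and a ratio of 0.92 (0.17 to 1.66), and Eif4ebp1, a repressor that binds eIF4E, with 0.49 (-0.14 to 1.11). Eif1 followed at -0.10 (-0.74 to 0.52), a sign that turned under 4 other scalings.

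These ratios depend on how the populations are scaled. With scran, TMM or DESeq2 size factors in place of total UMIs the median of all genes moved by 0.83, 0.77 and 0.93 in Grans and by 1.01, 0.86 and 0.97 in EryB, and by at most 0.33 in the lymphocytes against LSK. Leaving the most abundant transcripts out of the totals moved it by 0.23 in Grans and 0.36 in EryB. Besides haemoglobin, the transcript Gm42418 took 8.59% of UMIs in EryB, 13.8% in LSK, 16.4% in Grans, 17.0% in T_Lymph and 22.7% in B_Lymph. Relative to the median of all genes, 14 of the 39 factors were still at least 2-fold below it in Grans, against 24.1% of all genes, and 2, Eif4g3 and Eif4ebp1, were 2-fold above it, against 24.4%. The 14 were Eef1a1, Eef1b2, Eef1d, Eef1g, Eef2, Eif1a, Eif1ad, Eif3b, Eif3e, Eif3f, Eif3g, Eif3l, Eif4a1 and Eif4g1. Of the ribosomal proteins, 69 of 70 were at least 2-fold lower in Grans than in LSK (median -1.99).

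**Figure D2:**
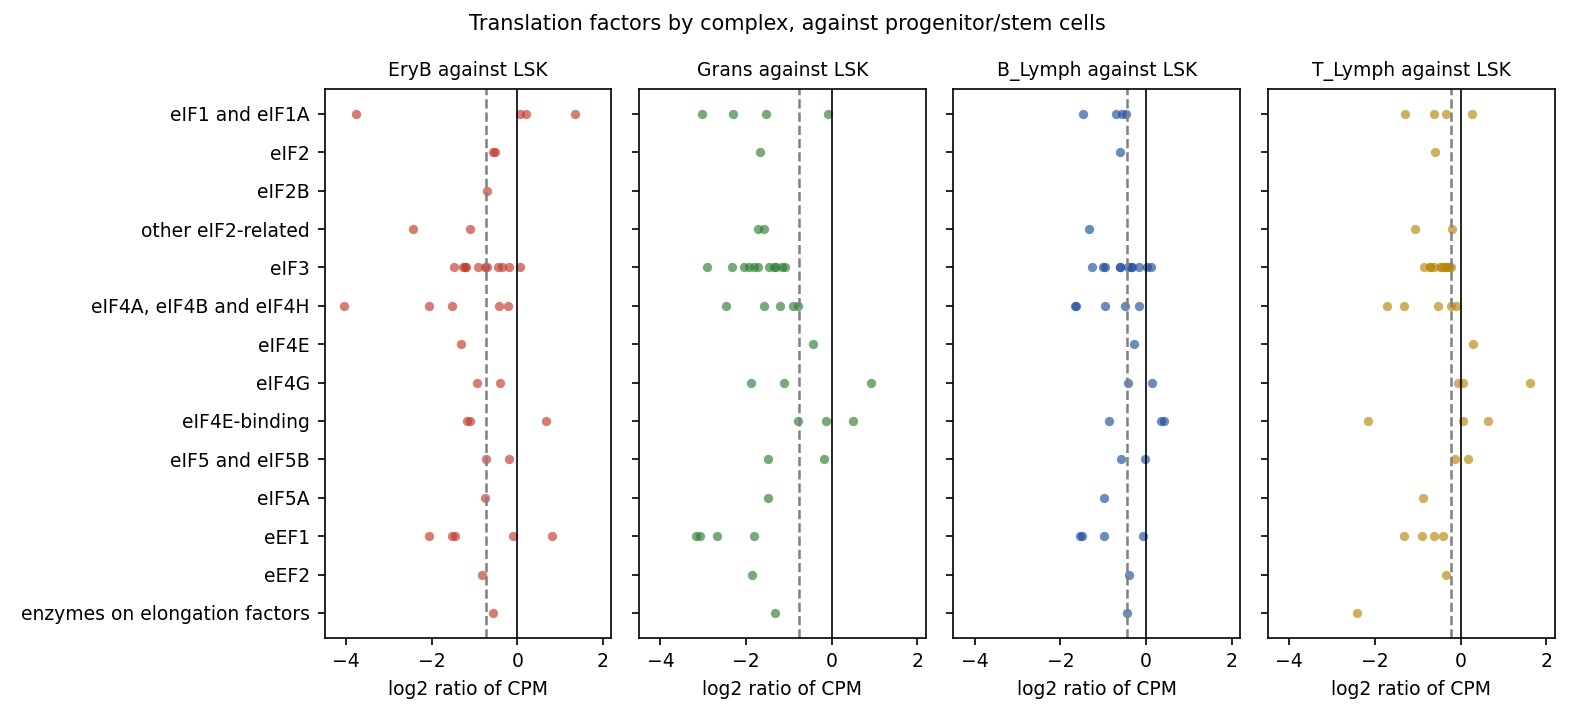
Log2 ratio of CPM of each counted factor (points) in EryB, Grans, B_Lymph and T_Lymph against LSK, by complex (vertical axis). The solid line is equality, the dashed line the median of all counted genes, and sums under 3 UMIs were set to 3. In Grans all 11 eIF3 subunits and all 4 eEF1 members lie left of the dashed line, whereas in EryB the factors lie on both sides of it.

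In the erythroblasts the median of the factors lay close to that of all genes, with single factors far on either side. Of 41 factors counted, 16 were at least 2-fold lower in EryB, against 40.9% of all genes, and 1 was at least 2-fold higher, against 14.8%. The median of the factors was -0.75 and that of all 4792 genes -0.73. Relative to that median, 5 factors were at least 2-fold below it (Eef1b2, Eif1a, Eif2a, Eif4a2 and Eif4b), against 25.1% of all genes. Another 3 were at least 2-fold above it (Eef1d, Eif1 and Eif4enif1), against 24.8%.

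Eif1, whose product keeps the scanning ribosome from starting at poor codons, was the factor 2-fold higher in EryB, with 223.5 CPM against 87.4 in LSK, a log2 ratio of 1.35 (0.94 to 1.78). Its level was 81.8 CPM in Grans, 58.9 in B_Lymph and 105 in T_Lymph. Of the UMIs of Eif1 and its 16 pseudogene copies, 65.5% lay on the copies, and with these added the EryB ratio was 1.39 (1.15 to 1.64). Eef1d, a further exchange subunit of eEF1B, had a ratio of 0.82 (0.47 to 1.17), and Eif4enif1, which carries eIF4E into the nucleus, 0.66 (0.19 to 1.14). All 3 were higher in EryB under each of the 5 other scalings as well.

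With sums under 3 UMIs set to 3, the lowest in EryB was the helicase gene Eif4a2, with 3 UMIs against 62 and a ratio of -4.04 (-6.36 to -2.43), then Eif1a with 1 UMI against 51 (-5.35, -10.68 to -2.81). Eif2a, which encodes a carrier of the initiator tRNA apart from eIF2, had 23 UMIs against 156 (-2.44, -3.14 to -1.80). For these 3 the sign held under the other scalings. It did not for 22 members with ratios from -0.94 (Eif4g2) to 0.06 (Eif1ax), so their direction in EryB depends on the scale. Among them were Eef2, Eif2s1, Eif2s3x, Eif5a and 7 subunits of eIF3.

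In the lymphocytes most factors lay closer to the LSK level. Of 37 factors counted in B_Lymph, 7 were at least 2-fold lower than in LSK, against 27.9% of all genes, and 0 were 2-fold higher, against 6.56%, with a median of -0.57 beside -0.44 for all 3793 genes. With sums under 3 UMIs set to 3, the lowest were the helicase genes Eif4a1, with 10 UMIs against 194 (ratio -1.66, -2.74 to -0.75), and Eif4a3, a core part of the exon junction complex, with 5 against 96 (-1.64, -3.30 to -0.37), then Eef1g (-1.54, -2.09 to -1.04). Eif1a had no UMI in B_Lymph, which with 3 UMIs as the floor puts its ratio at -1.47 or lower. Eef1b2 had 1 UMI against 52 (-3.08, -8.41 to -0.54), and with its pseudogene copy 10 against 246 (-2.00, -3.08 to -1.10), below the ratio of Eif4a1. The highest were Eif4ebp2 (0.41, -0.16 to 0.94), Eif4enif1 (0.34, -0.61 to 1.18) and Eif4g2 (0.13, -0.16 to 0.41), all with intervals that include 0, and the sign of Eif4enif1 turned with the mean over wells.

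Of 39 factors counted in T_Lymph, 7 were at least 2-fold lower than in LSK, against 17.8% of all genes, and 1 was 2-fold higher, against 8.35%. The factor 2-fold higher was Eif4g3, with 25 UMIs against 34 (ratio 1.61, 0.81 to 2.40), which lay at the 96.0 percentile of all genes. Eif4ebp2 followed with 0.65 (0.20 to 1.08) and Eif4e2, which encodes a cap-binding relative of eIF4E, with 0.29 (-0.47 to 0.99). At the low end, Eef2k, the kinase that inactivates eEF2, had 2 UMIs against 67 (-3.01, -6.08 to -1.10) and Eif4ebp1 had 1 against 56 (-3.75, -9.08 to -1.21). Eif4a3 was again low, with 7 against 96 (-1.72, -3.07 to -0.62). The median of the factors was -0.42 and that of all 4060 genes -0.22, and the 4 comparisons with LSK share its wells, so they are not independent of each other.

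The T and B lymphocytes could be compared for 16 factors, of which 1 was at least 2-fold higher in T_Lymph, against 18.2% of all 1103 genes, and 0 were 2-fold lower, against 9.34%. This was Eif4a1, with 43 UMIs against 10, a ratio of 1.54 (0.53 to 2.70). Eif4b, which stimulates the helicase eIF4A, had 0.73 (0.03 to 1.46) and Eef1g 0.64 (0.04 to 1.26). Eif3f (-0.52, -1.04 to 0.00), Eif3h (-0.27, -0.90 to 0.37) and Eif4g2 (-0.19, -0.54 to 0.16) were lowest, and for the last 2 the counts allow either direction. The median of the factors was 0.18 and that of all genes 0.29, with 6 of 16 factors above the latter.

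By role, the eIF2 subunits counted here were lowest in Grans. Eif2s1, the subunit that the kinases phosphorylate, had 135 CPM in LSK, 94.5 in EryB, 42.1 in Grans, 88.4 in B_Lymph and 89.8 in T_Lymph. Eif2s3x, which binds GTP and the tRNA, had 44.3, 30.0, 9.91, 29.5 and 39.9 CPM in the same order, from 37 UMIs in LSK and 4 in Grans. With its pseudogene copy added Eif2s3x had 73.1, 45.0, 17.3, 81.0 and 74.9 CPM, so that both lymphocyte values then stood above LSK, with intervals that overlap it. The 5 genes of eIF2B were low throughout, with 28 to 79 UMIs each over all wells. Together they took 0.0147% of UMIs in LSK, 0.0177% in B_Lymph, 0.0170% in T_Lymph, 0.00990% in EryB and 0.00446% in Grans. The eIF3 scaffold, with 12 members, took 0.255% in LSK, 0.201% in B_Lymph, 0.187% in T_Lymph, 0.146% in EryB and 0.0803% in Grans. Eif3e had the widest range among its members with at least 200 UMIs, at 317 CPM in LSK, 264.5 in T_Lymph, 236 in B_Lymph, 114 in EryB and 42.1 in Grans.

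Most elongation factor genes were highest in LSK and lowest in Grans. Eef1a1, which encodes the main eEF1A, had 1150 CPM in LSK, 744 in T_Lymph, 582 in B_Lymph, 399 in EryB and 181 in Grans. Scaled by total UMIs, neighbouring intervals in this order overlapped only between the lymphocytes. With scran, TMM and DESeq2 size factors the Eef1a1 log2 ratio to LSK was -0.51, -0.67 and -0.56 in EryB. In B_Lymph it was -0.69, -0.88 and -0.65, so EryB then stood above B_Lymph. Eef1g had 729.5 CPM in LSK, 389 in T_Lymph, 267 in EryB, 250 in B_Lymph and 81.8 in Grans, where EryB overlapped both lymphocyte populations. Eef1d broke this order, with 247.5 CPM in EryB, 140 in LSK, 132.5 in B_Lymph, 105 in T_Lymph and 39.7 in Grans. Eef2 had 1469 CPM in LSK, 1158 in T_Lymph, 1112 in B_Lymph, 835 in EryB and 401.5 in Grans, and over the granulocyte rows it varied from 202 to 635.5. Eef1b2 was low, with 62.3 CPM in LSK and from 7.36 in B_Lymph (1 UMI) to 24.95 in T_Lymph (5 UMIs) elsewhere. Eef1e1, grouped with eEF1 by its symbol and not summed with the elongation factors below, had 38.3 CPM in LSK, 36.0 in EryB and 4.96 in Grans. For Eef1b2, 83.0% of UMIs of its sequence fell on 1 pseudogene copy, and with the copy added its EryB ratio to LSK was -0.93 (-1.28 to -0.59) in place of -2.05. The eIF5A gene Eif5a, whose product also acts in elongation, had 277 CPM in LSK, 163.5 in EryB, 150 in T_Lymph, 140 in B_Lymph and 99.1 in Grans.

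The UMIs of Eef1a1, Eef1b2, Eef1d, Eef1g and Eef2 were set against those of all factors named Eif. The Eif side thus also held Eif5a and the genes that bind eIF4E. Pseudogene copies were not added here, though they held 33.1% for Eef1a1 and 83.0% for Eef1b2. On these counts the elongation share of both sides together was 33.4% (32.4 to 34.4) in LSK. It was 29.0% (27.6 to 30.4) in EryB, 29.0% (26.8 to 31.2) in T_Lymph, 27.3% (24.6 to 30.1) in B_Lymph and 19.1% (17.1 to 21.1) in Grans. Over plate rows it ran from 32.3% to 35.0% in LSK and from 12.5% to 25.3% in Grans, so the rows of these populations did not overlap. EryB, T_Lymph and B_Lymph could not be told apart by this share.

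Related genes that encode versions of the same factor were used in different proportions. Eif4a2 gave 24.2% (19.1 to 29.9) of the UMIs of the helicase genes Eif4a1 and Eif4a2 in LSK, 5.26% (1.10 to 14.6) in EryB, 48.5% (30.8 to 66.5) in Grans, 47.4% (24.4 to 71.1) in B_Lymph and 12.2% (4.63 to 24.8) in T_Lymph. EryB thus lay below LSK, and Grans above it, without overlap of the counting intervals. Over plate rows the share ran from 20.8% to 26.5% in LSK and from 0% to 13.3% in EryB. In Grans it ran from 20.0% to 66.7%, so the rows of Grans and LSK overlapped. The set held 57 UMIs in EryB, 33 in Grans and 19 in B_Lymph, and Eif4a2 (chr16:23107444-23114136, plus strand) overlaps Rfc4.

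Eif1a gave 36.2% (28.3 to 44.7) of the UMIs of Eif1a and Eif1ax, both of which encode eIF1A, in LSK, but 1.32% (0.0333 to 7.11) in EryB, where Eif1ax held 75 of 76 UMIs. The share was 16.7% (3.58 to 41.4) in Grans, 32.0% (14.9 to 53.5) in T_Lymph and 0 of 9 UMIs in B_Lymph, which allows up to 33.6%. The low level of Eif1a in EryB was thus not shared by its relative, with 112 CPM of Eif1ax in EryB and 108 in LSK.

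Among the scaffold genes of eIF4G, Eif4g3 gave 3.403% (2.37 to 4.72) of UMIs in LSK, 0.871% (0.238 to 2.22) in EryB, 14.0% (9.73 to 19.3) in Grans, 8.77% (4.99 to 14.1) in B_Lymph and 9.88% (6.50 to 14.2) in T_Lymph. Grans and both lymphocyte populations lay above LSK, and EryB below it, without overlap of the intervals. Eif4g1, the main scaffold, gave 28.2% in LSK, 37.3% (32.8 to 41.9) in EryB, 16.7% (12.1 to 22.3) in Grans, 19.9% in B_Lymph and 27.7% in T_Lymph. Eif4g2, whose product lacks the eIF4E site, gave 61.9% to 71.3% in every population.

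Of the eIF4E repressors, Eif4ebp1 gave 1.61% (0.0408 to 8.66) of the UMIs of Eif4ebp1 and Eif4ebp2 in T_Lymph, where it had 1 UMI beside 61. It gave 12.5% (4.19 to 26.8) in B_Lymph, 25.0% (16.0 to 35.9) in EryB, 25.7% (20.0 to 32.0) in LSK and 34.9% (26.0 to 44.6) in Grans. T_Lymph lay below the 3 non-lymphoid populations without overlap and could not be separated from B_Lymph. Eif5a2 was rare beside Eif5a, at 2.94% in LSK, 9.92% (5.23 to 16.7) in EryB and 0 of 19 UMIs in B_Lymph. Shares within these sets do not depend on the scaling between populations.

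**Figure D3:**
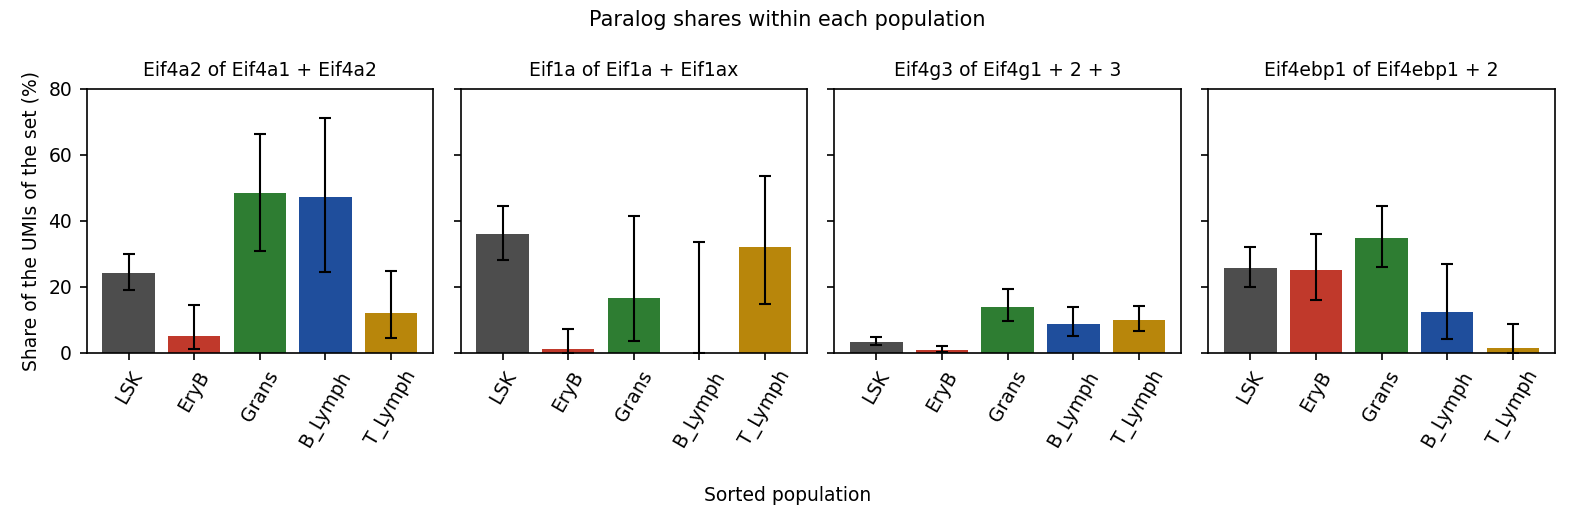
Share of each gene in the UMIs of its set of related genes (vertical axis, percent) per population, with 95% exact binomial intervals. Eif4a2 and Eif1a are near 0 in EryB, at 5.26% and 1.32%, Eif4g3 is above the LSK share in Grans and the lymphocytes, and Eif4ebp1 is lowest in T_Lymph at 1.61%.

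Of the eIF2 kinases, Eif2ak1 in EryB and Eif2ak3 in B_Lymph had a level whose interval lay above those of all other populations. Eif2ak1, which encodes the haem-regulated kinase (chr5:143817788-143904251, plus strand, GENCODE M21 on GRCm38), had 570 CPM (514 to 630) in EryB, 177 (113 to 263) in B_Lymph, 146 (111 to 189) in Grans, 103 (82.4 to 127) in LSK and 74.9 (41.9 to 123) in T_Lymph. The EryB value stood apart from the others, while neighbours below it overlapped. Against LSK it was 5.53-fold higher, a log2 ratio of 2.47 (2.13 to 2.82), at the 93.4 percentile of all genes, and it was higher under each other scaling. Its start window, printed above, holds a run of 5 pyrimidines at positions -5 to -1, before the first transcribed base.

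The higher level of Eif2ak1 was seen in each of the 4 EryB rows, from 411 to 770 CPM, where the 4 LSK rows ran from 73.5 to 130. A UMI was found in 93 of 96 EryB wells and 49 of 95 LSK wells, and after each well was thinned to 1000 UMIs in 44.2% (34.0 to 54.8) and 8.42% (3.71 to 15.9). The thinned shares were 17.0% in Grans, 14.0% in B_Lymph and 7.14% in T_Lymph. Haemoglobin transcripts in those populations were at 5.16% to 12.0% of their EryB level, and the part of carried-over RNA in the Eif2ak1 counts there was not tested. The gene overlaps Aimp2 and Ankrd61, and whether the counts use strand is not given in the sources used here.

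Eif2ak2, the kinase that responds to double-stranded RNA (chr17:78852564-78882573, minus strand), had 175 CPM (122 to 243) in T_Lymph, 125 (102 to 151) in LSK, 74.3 (50.2 to 106) in Grans, 72.0 (53.1 to 95.4) in EryB and 29.5 (8.03 to 75.4) in B_Lymph. The T_Lymph level rested on few wells, since 9 of its 35 UMIs came from well O1 and the rows gave 54.8 and 275 CPM. Without that well it was 134 CPM (87.8 to 197), a log2 ratio to LSK of 0.11 (-0.57 to 0.74). Eif2ak2 in T_Lymph was therefore not separable from LSK.

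Eif2ak3, the kinase of the endoplasmic reticulum stress response (chr6:70844515-70905245, plus strand), had 103 CPM (56.4 to 173) in B_Lymph, from 14 UMIs in 10 of 44 wells, and 22.3 in Grans, 9.98 in T_Lymph, 9.00 in EryB and 1.198 in LSK. B_Lymph lay above the other populations without overlap of intervals, on small counts. Eif2ak4, which senses uncharged tRNA (chr2:118388618-118475234, plus strand), had 57.5 CPM (42.4 to 76.2) in LSK, 44.2 (16.2 to 96.2) in B_Lymph, 20.0 in T_Lymph, 13.5 (6.17 to 25.6) in EryB and 9.91 (2.70 to 25.4) in Grans. The LSK and B_Lymph intervals overlapped, and with the mean over wells B_Lymph lay above LSK (log2 ratio 0.52). In EryB the ratio to LSK was -2.09 (-3.30 to -1.05).

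As a share of the kinase UMIs, Eif2ak1 held 85.8% (82.2 to 88.9) in EryB, 57.8% (47.7 to 67.6) in Grans, 50.0% (35.2 to 64.8) in B_Lymph, 36.0% (29.9 to 42.4) in LSK and 26.8% (15.8 to 40.3) in T_Lymph. In LSK the larger part was Eif2ak2 (43.5%, 37.1 to 50.1) with 20.1% of Eif2ak4, and in T_Lymph Eif2ak2 held 62.5% (48.5 to 75.1). Over the T_Lymph rows Eif2ak2 ran from 41.7% to 68.2% and Eif2ak1 from 18.2% to 58.3%, so the larger of them differed between rows. The T_Lymph shares were not recomputed without well O1. Eif2ak3 held 29.2% (17.0 to 44.1) in B_Lymph and at most 8.82% elsewhere. The kinases together took 0.0664% of UMIs in EryB and 0.0253% to 0.0353% in the other populations.

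**Figure D4:**
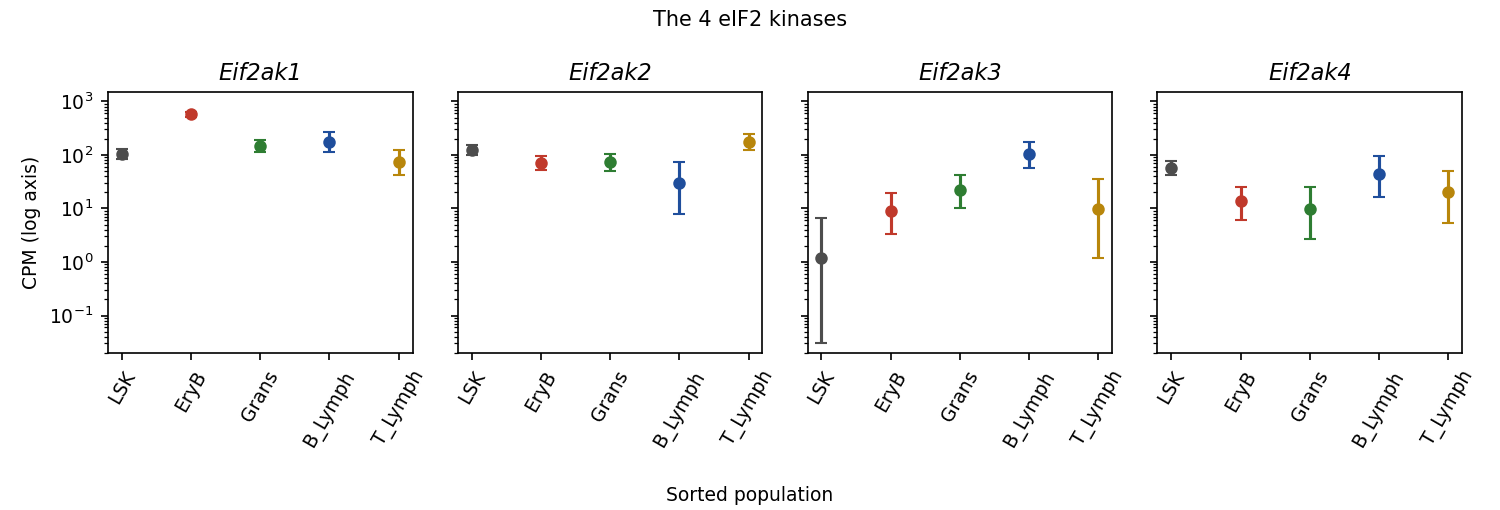
CPM of the 4 eIF2 kinase genes (vertical axis, log scale) in each sorted population, with 95% exact Poisson intervals of the summed UMIs. Eif2ak1 stands at 570 CPM in EryB against 74.9 to 177 elsewhere, Eif2ak3 at 103 CPM in B_Lymph, and Eif2ak2 is highest in T_Lymph at 175 CPM with an interval that overlaps that of LSK.

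Genes that act beside the factors were read from 5 lists. Of the genes that signal to the factors 6 could be counted in EryB, of which 2 were at least 2-fold higher, against 14.8% of all genes, and 2 at least 2-fold lower, against 40.9%. Of the higher pair, Ppp1r15a, which encodes a subunit of the phosphatase that reverses eIF2 phosphorylation, had 430.5 CPM against 35.9 in LSK (log2 ratio 3.58, 3.04 to 4.18), and its constitutive relative Ppp1r15b 207 against 74.3 (1.48, 1.04 to 1.94). The lower were Bzw1 (66.0 against 207 CPM, -1.65, -2.16 to -1.17) and Bzw2 (6.00 against 140 CPM, -4.55, -6.45 to -3.15), which encode mimics of eIF5. Of the targets of the eIF2 kinase pathway, 2 of 6 could be counted in EryB and both were at least 2-fold higher, the transcription factor gene Atf4 (337.5 against 147 CPM, 1.196, 0.87 to 1.52) and the asparagine synthetase gene Asns (127 against 8.39 CPM, 3.93, 2.82 to 5.28). Trib3 and Chac1, of the same list, had no UMI in EryB.

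The poly(A) and cap accessories gave 1 gene higher and 4 lower of 6 counted in EryB, and termination and recycling 0 higher and 3 lower of 5, beside 40.9% of all genes lower. The 2 hypusine enzymes had too few UMIs to be counted. The higher one was Pabpc4, a poly(A)-binding protein gene, with 868 CPM against 156 in LSK (2.48, 2.203 to 2.77), 34.7 in Grans, 103 in B_Lymph and 59.9 in T_Lymph. Pabpc1, the main member of that family, had 1680 CPM in EryB and 2356 in LSK (-0.49, -0.60 to -0.38). This ratio lay above the median of all genes (-0.73). That median moved by 1.01, 0.86 and 0.97 with scran, TMM and DESeq2 size factors. Each shift is larger than 0.49, so the direction of Pabpc1 in EryB depends on the scale. In Grans, 4 of 5 counted genes of termination and recycling and 5 of 6 accessories were at least 2-fold lower, beside the 42.7% of all genes.

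Within the erythroblasts the factors followed surface Ter119, an erythroid surface antigen whose fluorescence was recorded for each sorted cell. In the 95 wells with at least 1000 UMIs, the factor share of the UMIs without haemoglobin had a Pearson r of -0.70 and a Spearman rho of -0.68 with Ter119. For CD44, a protein lost during red cell maturation, r was 0.52, for forward scatter 0.46 and for the log2 total UMI count 0.48. The wells share a library plate and a mouse, and depth and haemoglobin move with Ter119, so these are descriptions and no p is given. Haemoglobin itself had an r of 0.75 with Ter119.

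Split at the median Ter119, the 48 wells of lower fluorescence (3046 to 6582 arbitrary units) gave factors at 0.896% (0.864 to 0.929) of UMIs without haemoglobin. The 47 wells of higher fluorescence (6623 to 16431) gave 0.659% (0.622 to 0.697). The ribosomal proteins gave 5.69% and 3.20%, and haemoglobin 16.5% and 33.5% of all UMIs. The split is a range and not a cell type, with 15 wells within 10% of it, and the median depth was 7324.5 UMIs in the lower and 5429 in the higher wells.

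Of 26 factors counted within EryB, 6 were at least 2-fold lower in the wells of higher Ter119, against 9.81% of all 1866 genes, and 0 were 2-fold higher, against 7.02%. They were Eif3e (ratio -1.59, -2.62 to -0.69), Eef1a1 (-1.51, -2.01 to -1.04), Eef1g (-1.37), Eif4enif1 (-1.196), Eif4a1 (-1.14) and Eif3f (-1.01). The median of the factors was -0.65 where that of all genes was -0.04, and 20 of the 26 lay below 0. Among the 6 above 0 were Eif1 (0.38, -0.12 to 0.86), Eef1d (0.35, -0.12 to 0.81) and Eif5 (0.45, 0.06 to 0.83). Of the ribosomal proteins, 22 of 65 were at least 2-fold lower (median -0.85).

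Eif2ak1 went the opposite way. It had 510 CPM (435 to 594) of the UMIs without haemoglobin in the wells of lower Ter119 and 1164 (1014 to 1331) in those of higher Ter119, a log2 ratio of 1.19 (0.89 to 1.49) at the 96.0 percentile of all genes. Over the 95 wells its share had an r of 0.57 and a rho of 0.54 with Ter119. With haemoglobin kept in the total, the levels were 426 and 774 CPM.

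**Figure D5:**
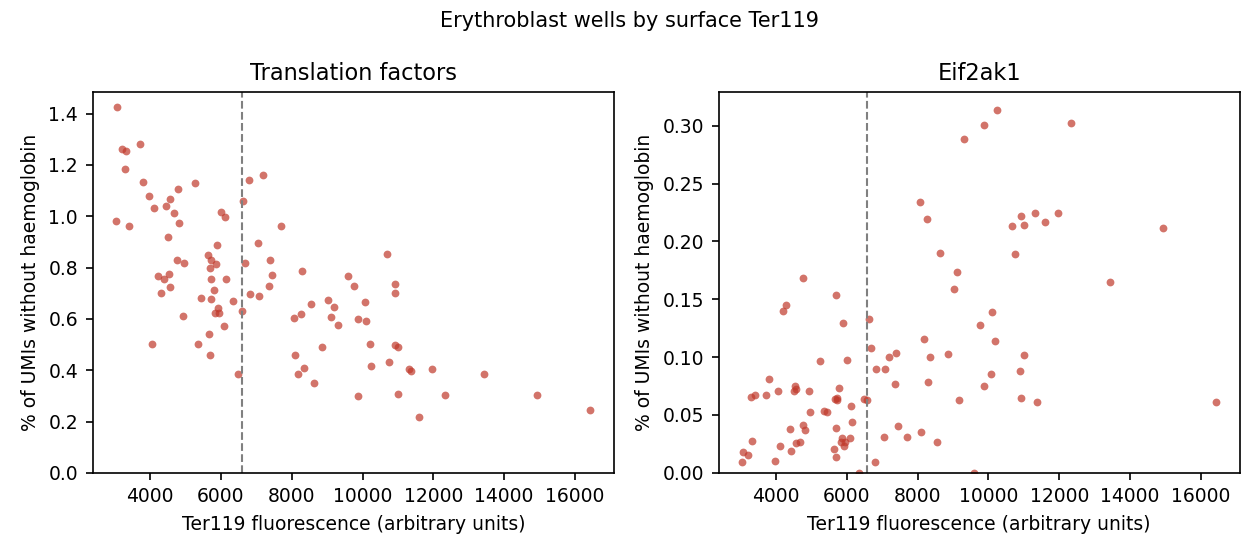
Share of UMIs without haemoglobin (vertical axes, percent) taken by the factors (left) and by Eif2ak1 (right) in 95 erythroblast wells, against surface Ter119 in arbitrary units, with the median Ter119 dashed. The factor share declines along Ter119 (r = -0.70) and that of Eif2ak1 is higher in the wells of higher Ter119 (r = 0.57).

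In the other populations, of the 10 scatter and surface measures recorded per well, CD44 (r = -0.53, rho = -0.37) and Gr1 (r = -0.43, rho = -0.32) in 94 granulocyte wells had the r of largest size with the factor share. Both are descriptions, and Gr1 was part of the sort. The factor share and the ribosomal protein share of a well moved together in Grans (r = 0.78, rho = 0.61) and EryB (r = 0.91, rho = 0.92), and less in LSK (r = 0.45), B_Lymph (r = 0.44) and T_Lymph (r = 0.29). These shares have the same denominator, the total of the well.

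Reads of several members may have been divided with near-identical pseudogene copies. Rows of 59 pseudogene copies of 20 members, with at least 90% identity over at least 200 bases, held 2739 UMIs. The part of a member's UMIs that lay on copies was 83.0% for Eef1b2, 65.5% for Eif1, 41.1% for Eif2s3x, 38.4% for Eif3m, 33.1% for Eef1a1, 27.1% for Eef1g and 26.4% for Eef1d. With the copies added the factor shares were 1.25% in LSK, 0.971% in T_Lymph, 0.852% in B_Lymph, 0.734% in EryB and 0.431% in Grans, in the same order. Eef1a1 in Grans against LSK was -2.50 (-2.78 to -2.23) with copies and -2.67 without. In all, 20 members also overlap another counted gene.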

How the data were processed

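Single cells of 5 populations of 1 mouse were sorted into a 384-well plate layout and sequenced by CEL-seq2. Per the labels the authors made the table with scPipe, and the deposited values are raw UMI counts without normalization. The aligner version, genome build, annotation and strand setting were not given in the sources used here, and the labels give contradictory positions of barcode and UMI in read 1. Each column was tied to its sample through the well name, and 9 further columns without a sample were left aside. Symbols and coordinates were taken from GENCODE M21 (GRCm38), and 74 gene IDs without a symbol held 1107 UMIs.

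Counts were summed over the 374 wells by population and divided by the UMIs on mouse genes. The median depth per well was 7959 UMIs in LSK, 6113.5 in EryB, 3880 in Grans, 3028.5 in B_Lymph and 4347 in T_Lymph. Intervals are 95% exact Poisson (sums), Clopper-Pearson binomial (shares) and conditional binomial (ratios), and cover counting error only. As each population is 1 sample, no p-value was computed. Members were counted in a comparison with at least 50 UMIs in both populations together, sums under 3 UMIs were set to 3 for medians, ranks and counts, and a fold of 2 was called. All genes were treated in the same way. Kinases were kept apart from the factors.

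The members and lists were chosen with earlier results of these data known. Named with values were the kinases, the sets of related genes, the eEF1 and eIF2 subunits, Eef2 and Eif5a. To these came the 3 highest and 3 lowest factors per comparison and the 6 members with the widest range among those with at least 200 UMIs. Other genes named within a group were chosen after their values were seen. The lists of other translation genes were termination and recycling, poly(A) and cap accessories, hypusine enzymes, signalling to the factors and targets of the eIF2 kinase pathway. Alternatives changed the scaling (scran 1.30.0, TMM of edgeR 4.0.16, DESeq2 1.42.0, totals without the most abundant transcripts), weighting, wells, filters and fold. Pseudogene copies were found with BLAST 2.17.0. The split of erythroblasts by Ter119 and the additions of pseudogene copies were chosen after seeing the data. The intervals and fold calls were run on simulated Poisson sums. These leave out the spread between cells, so this checks the calculation only. Python (pandas 2.3.3, SciPy 1.17.1, NumPy 2.4.6, matplotlib 3.10.9) and R 4.3.3 were used. Start sequences came from a RefSeq table (GRCm38.p6).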

Additional observations from a re-analysis of the deposited data

Results flagged for a closer look

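The gene table held 7 rows for pseudogenes named after members, which entered a comparison only where pseudogene copies were added to their members, and each had more UMIs than the limit of 3 that a count of 0 allows. Over all wells Eif1-ps1 had 142 UMIs, Eif3s6-ps1 had 88 and Eif4a-ps4 had 63. Eif5al3-ps had 14 UMIs, Eif1-ps3 had 11, Eif3s6-ps2 had 8 and Eif3s6-ps4 had 7. Whether these UMIs came from the pseudogenes or from the near-identical members was not tested.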

How the results depend on the processing

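No paired analysis was possible because each population is 1 sample of the same mouse and wells of different populations carry no shared number. No ratio of at least 2-fold of a named member turned in sign under the alternatives of scaling, weighting, wells or added copies. Ratios of listed genes outside the members, and those between the erythroblast wells split by Ter119, were not recomputed. Over the 6 scalings the sign of smaller ratios turned for 22 members in EryB, 8 in Grans, 10 in B_Lymph and 3 in T_Lymph against LSK. In T_Lymph against B_Lymph it turned for 3. Totals without the most abundant transcripts gave factor shares of 1.32% in LSK, 0.969% in EryB, 0.538% in Grans, 1.11% in B_Lymph and 1.09% in T_Lymph, so that the order of the lymphocytes turned. The mean over wells gave 0.552% in EryB and 0.354% in Grans.

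For EryB against LSK, the factors at least 2-fold higher and lower were 3 and 9 without abundant transcripts, 6 and 5 with scran, 4 and 5 with TMM, and 6 and 5 with DESeq2. For Grans they were 1 higher without abundant transcripts, 2 and 12 with scran, 2 and 14 with TMM, 2 and 10 with DESeq2, and 1 higher with the mean over wells. A fold of 1.5 gave 3 higher in EryB, 1 in Grans, 2 in T_Lymph and 3 in T_Lymph against B_Lymph, and 17 lower in B_Lymph and 16 in T_Lymph.

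At least 20 UMIs gave 2 higher in EryB, 1 in B_Lymph and 2 in T_Lymph against B_Lymph. At least 100 UMIs gave 10 lower in EryB, 4 in B_Lymph and 2 in T_Lymph, with 0 higher in T_Lymph and 0 in T_Lymph against B_Lymph. With 1 UMI enough, 3 were higher in EryB, 3 in B_Lymph, 2 in T_Lymph and 3 in T_Lymph against B_Lymph, where 4 were lower.

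The median of the factors less that of all genes in EryB was 0.23 at 20 UMIs, -0.19 at 100 and -0.66 with no filter, where Grans gave -1.77 and T_Lymph -1.18. In B_Lymph it was -0.18 with the mean over wells, -0.074 in wells with at least 2000 UMIs, -0.059 without A8 and B2, -0.053 without wells high in haemoglobin, -0.25 at 20 UMIs, -0.046 at 100 and -1.503 with no filter. In T_Lymph against B_Lymph it was -0.088, -0.20, -0.083, -0.093, -0.10, -0.041 and 0.71 under the same settings. The sign in EryB turned at 20 UMIs and that in T_Lymph against B_Lymph with no filter. The cause was not tested.

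Alternatives chosen after seeing the data counted folds from the median of all genes, with 3 higher and 5 lower in EryB and 2 and 14 in Grans, and added pseudogene copies. The copies gave shares of 1.25%, 0.734%, 0.431%, 0.852% and 0.971% in LSK, EryB, Grans, B_Lymph and T_Lymph, and a median difference of -0.047 in B_Lymph. Of the log2 ratios of named members recomputed under the alternatives other than added copies, 670 stayed within their 95% counting interval and 130 did not, while all 300 shares within sets of related genes stayed within it. With the copies added 55 more ratios and 55 more shares stayed within it, and the ratio of Eef1b2 in EryB did not (-0.93). Depth limits the lymphocytes most, where 16 factors could be compared.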
